A study of Mus musculus with 4 samples.

Results

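The cell cycle and mitosis genes are 40 mouse genes that run the G1 decision, DNA synthesis and mitosis, taken as a fixed list of symbols. All 40 were matched to an identifier among the 39179 genes counted, and all 40 passed the filter on low counts that left 14075 genes for testing. They were measured by polyadenylated RNA sequencing of macrophages sorted from tumours under the skin of FVB mice. In the MycCaP-BMP4 group (n = 2 libraries) the injected cells were of the MycCaP-BMP4 line, MycCaP made to overexpress BMP4, which is a secreted growth factor of the bone morphogenetic family. In the MycCaP group (n = 2 libraries) they were of the parental line, MycCaP, derived from mouse prostate cancer. In both groups the dissociated tumours were sorted for cells with CD45, CD11b and F4/80 and without GR1. The titles name F4/80 for the MycCaP-BMP4 libraries only, the ages of the mice are not given, and nothing says whether the libraries of a group came from separate mice or how many mice were pooled. The p-values therefore measure the spread between these libraries, which may be technical.

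Cells enter the cycle when D-type cyclins with CDK4 or CDK6 release E2F factors from retinoblastoma proteins, and CDK inhibitors hold this step back. E2F factors then switch on cyclin E and the genes of DNA replication. Later, cyclin A, cyclin B and CDK1 with the Aurora and Polo kinases drive mitosis, whose genes are bound at their promoters by the DREAM and MYB-MuvB-FOXM1 complexes. Tumour macrophages arise largely from blood monocytes and can also divide in the tissue.

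The promoters of replication and mitosis genes differ in their letters, so 6 are shown here, from RefSeq on GRCm38.p6. Each gives the 160 bases before the listed start, in the direction of the gene. Capitals mark TTTGAA, the core of the cell cycle homology region (CHR) bound by MuvB complexes, CCAAT, the box bound by NF-Y, and TTTCCCGC, TTTGGCGC or TTTCGCGC, forms of the E2F site, each on either strand. These 6 were picked because they hold these words, 4 from genes of the division phase and 2 from the MCM helicase that opens DNA for replication. Overlapping E2F words run together in Mcm5 and in Mcm6.
Cdk1 (chr10:69352913-69353072, minus strand): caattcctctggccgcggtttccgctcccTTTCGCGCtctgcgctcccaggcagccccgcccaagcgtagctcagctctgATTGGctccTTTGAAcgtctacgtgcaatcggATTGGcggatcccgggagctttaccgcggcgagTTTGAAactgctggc
Cdc20 (chr4:118437344-118437503, minus strand): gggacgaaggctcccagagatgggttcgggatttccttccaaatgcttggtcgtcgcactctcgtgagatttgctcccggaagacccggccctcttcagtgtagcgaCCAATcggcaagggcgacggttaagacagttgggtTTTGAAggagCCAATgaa
Top2a (chr11:99024190-99024349, minus strand): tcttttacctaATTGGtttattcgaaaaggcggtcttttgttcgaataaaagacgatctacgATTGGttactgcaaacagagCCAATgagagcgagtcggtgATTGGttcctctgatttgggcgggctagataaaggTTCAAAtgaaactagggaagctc
Kif11 (chr19:37376222-37376381, plus strand): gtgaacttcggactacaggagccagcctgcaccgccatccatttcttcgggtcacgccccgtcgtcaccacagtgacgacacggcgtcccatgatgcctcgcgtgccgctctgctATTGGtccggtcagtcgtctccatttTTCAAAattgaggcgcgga
Mcm5 (chr8:75109349-75109508, plus strand): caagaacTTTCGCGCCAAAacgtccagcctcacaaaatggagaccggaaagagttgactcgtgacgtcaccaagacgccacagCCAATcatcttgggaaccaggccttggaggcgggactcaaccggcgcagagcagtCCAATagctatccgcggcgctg
Mcm6 (chr1:128359706-128359865, minus strand): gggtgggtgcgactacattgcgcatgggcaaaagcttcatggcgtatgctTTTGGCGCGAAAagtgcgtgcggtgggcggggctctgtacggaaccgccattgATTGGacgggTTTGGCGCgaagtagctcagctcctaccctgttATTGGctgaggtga

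The promoter table held 34 of the 40 genes, and the words were counted from 250 bases before to 50 after each start. TTTGAA was present for 7 of 9 mitosis genes (77.8%: Aurka, Bub1b, Cdc20, Cenpa, Kif11, Plk1 and Ube2c) and for 1 of 9 replication genes (11.1%, Mcm2), beside 20.2% of all 27025 genes in the table and 14.5% of the genes tested here. An E2F word was present for 4 of 9 replication genes (44.4%: Mcm3, Mcm5, Mcm6 and Mcm7) and for 0 of 9 mitosis genes, beside 2.12% of all genes in the table and 3.96% of the genes tested here. CCAAT was present for 8 of 9 genes in each of these groups (88.9%), beside 41.1% of all genes in the table and 42.6% of the genes tested here. These are matches of letters, and no binding was measured.

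The libraries held 24313328 and 23058263 counts in genes for MycCaP-BMP4 replicates 1 and 2, and 24967143 and 24385036 for MycCaP replicates 1 and 2. CPM is counts per 1000000 gene counts after scaling with TMM factors, and 3 counts were worth 0.120 to 0.130 CPM before that scaling. Bmp4 had 511 and 182 CPM in MycCaP-BMP4 libraries, against 0.175 and 0.0422 CPM in MycCaP libraries, and even this difference did not pass edgeR's test (log2 fold change 11.59 ± 0.95, adjusted p = 0.0729). MycCaP-BMP4 replicate 1 stood apart from the other libraries. The 18 pan-macrophage genes, all detected in every library, summed to 7953 and 30481 CPM in MycCaP-BMP4 libraries, against 41198 and 36859 CPM in MycCaP libraries. The 17 tumour epithelium genes, among which Spdef had no count in any library, summed to 865 and 352 CPM against 127 and 169 CPM. Osteoblast and cartilage genes summed to 144 and 80.7 CPM against 19.5 and 28.9 CPM, and T and NK cell genes to 6.95 and 11.5 CPM against 69.4 and 58.1 CPM. The part of these other cells in the cell cycle results was not tested, and in bulk RNA fewer cells of a type and less RNA per cell cannot be told apart.

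The comparison asks how macrophages differ between tumours with and without added BMP4. With TMM scaling most cell cycle genes were modestly lower in MycCaP-BMP4 libraries. When macrophage markers set the scaling, 38 of the 40 were higher. So were most genes, as 7.84% of all genes had a log2 fold change below 0 on that scale. Mitosis genes had a median log2 fold change of -0.66 over 10 genes, near those of the CDK inhibitors (-0.60, 4 genes) and of the later cyclins with Cdk1 (-0.59, 4 genes), and DNA replication genes lay closer to no difference, at -0.24 over 10 genes. Cyclin D2 (Ccnd2) stood far below the rest, at about 19.1% of its MycCaP level. Ccne2 and Rrm2, and by less Ccnd1 and Cdk6, were higher in both MycCaP-BMP4 libraries, as were 28.9% of all genes. No member passed the test: after Benjamini-Hochberg adjustment, edgeR's quasi-likelihood test called 0 of 40, and 0 of all 14075 genes tested (0%). At an unadjusted p under 0.05, 10 members were lower and 0 higher, beside 6.76% of all genes lower and 12.3% higher. DESeq2 called 1 member, Ccnd2, lower, beside 3.01% of all genes lower, 6.83% higher and 9.84% in all, and limma-voom called 0 of 40 and 0% of all genes.

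With TMM scaling the log2 fold change was below 0 for 34 of the 40 members, beside 51.7% of all genes, and above 0 for 6. Its median was -0.42 over the members and -0.03 over all genes tested. Both MycCaP-BMP4 libraries lay below both MycCaP libraries for 27 members, where 29.7% of all genes did so, and above both for 4, where 28.9% of all genes did so. Scaling on the pan-macrophage genes moved the median of all genes by 1.67 on the log2 scale. On that scale 7.84% of all genes had a log2 fold change below 0, and so did 2 members, Ccnd2 and Cdkn1a. No member passed edgeR's test on that scale, while 7.64% of all genes were called higher and 0.163% lower. Relative to that shift the median of the 40 members was -0.43.

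**Figure D1:**
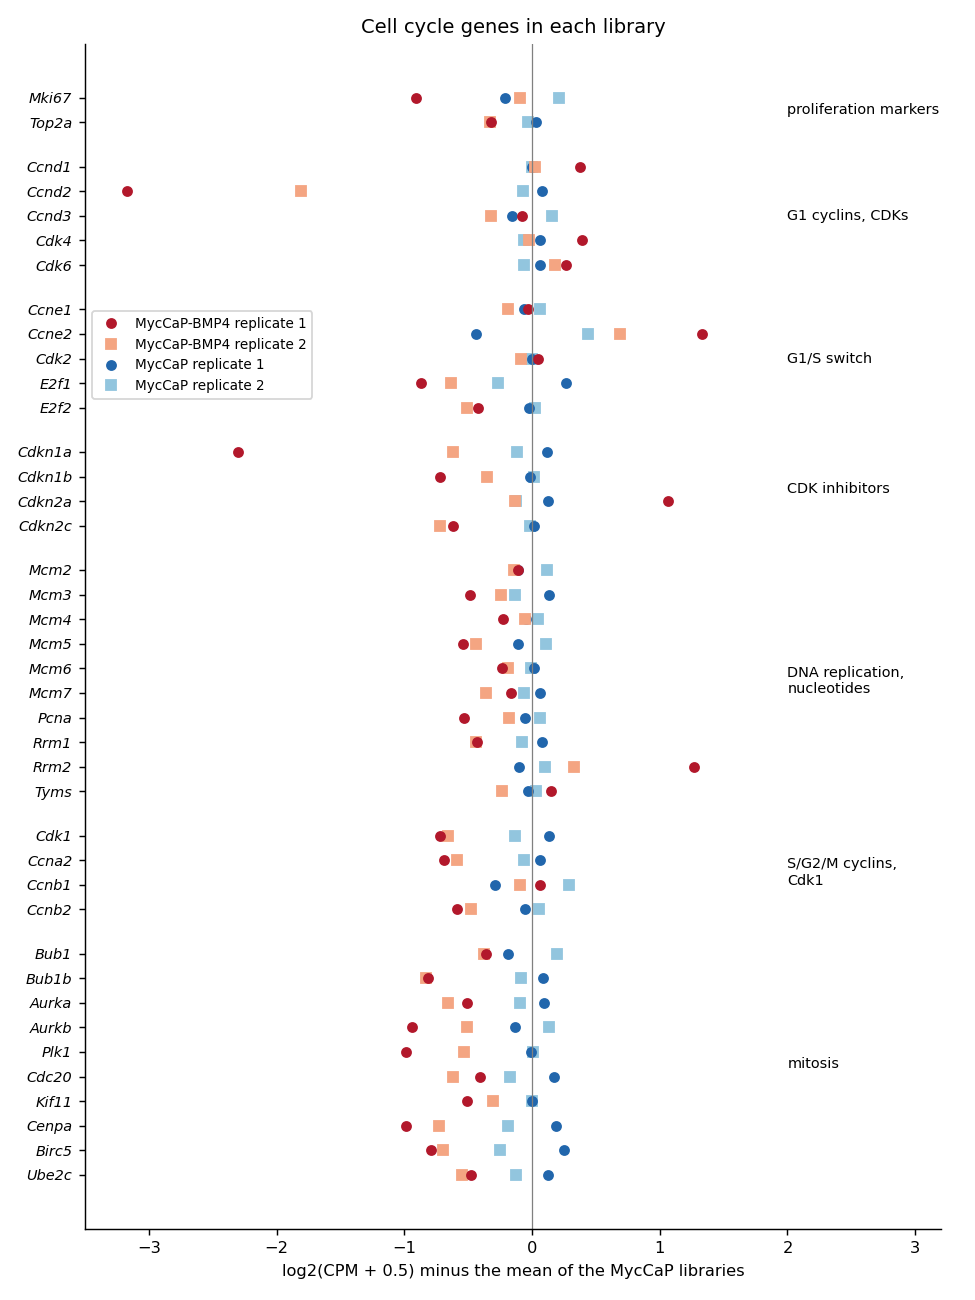
Each row is 1 gene, grouped by role, and each symbol is 1 library; the horizontal axis is log2(CPM + 0.5) minus the mean of the 2 MycCaP libraries. With this TMM scaling the 10 mitosis genes lie left of both MycCaP libraries in both MycCaP-BMP4 libraries, as 29.7% of all genes do. Scaled on macrophage markers, which raises mostly MycCaP-BMP4 replicate 1, 38 of 40 members have a log2 fold change above 0. On that scale 7.84% of all genes are below 0. With TMM scaling Ccnd2 and Cdkn1a lie far left in MycCaP-BMP4 replicate 1, and Cdkn2a lies to the right in that library alone.

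The 40 genes took 0.325% and 0.307% of all gene counts in MycCaP-BMP4 libraries, against 0.372% and 0.381% in MycCaP libraries. Means were 0.316% ± 0.0127 and 0.376% ± 0.00624 (SD, n = 2 each). The groups did not overlap, and the exact two-sided permutation test gave p = 0.333, the smallest that 2 libraries against 2 allow.

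Per length, Pcna, Cdkn1a and Cdk4 had the highest mean levels in both groups. In TPM, transcripts per 1000000, computed from the counts and the summed exon length of each gene, Pcna averaged 283 TPM in MycCaP-BMP4 libraries and 321 TPM in MycCaP libraries. Cdkn1a averaged 217 and 468 TPM in the same order of groups, and Cdk4 198 and 151 TPM. Cdkn2a came next in MycCaP-BMP4 libraries, through replicate 1, with 278 and 103 TPM against 112 and 104 TPM in MycCaP libraries, where Ccnb2, at a mean of 86.2 TPM in MycCaP-BMP4 libraries and 111 TPM in MycCaP libraries, lay above it. Ccnd2 was the lowest member in MycCaP-BMP4 libraries, at 3.86 TPM against 18.4 TPM in MycCaP libraries, where several members lay below it. Cdk6 was the lowest in MycCaP libraries, at 4.38 TPM in MycCaP-BMP4 libraries against 3.29 TPM in MycCaP libraries. The summed length counts every annotated exon, so genes with many isoforms are given too low a level.

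Mki67 encodes the proliferation antigen Ki-67 and Top2a the topoisomerase that untangles replicated chromosomes. Mki67 had 124 and 219 CPM in MycCaP-BMP4 libraries, against 202 and 271 CPM in MycCaP libraries. These groups overlapped, since MycCaP-BMP4 replicate 2 lay between the MycCaP libraries and only replicate 1 lay below them. Its log2 fold change was -0.46 ± 0.39 (SE; edgeR adjusted p = 0.54), or -0.11 without MycCaP-BMP4 replicate 1. Top2a had 215 and 214 CPM in MycCaP-BMP4 libraries, against 276 and 263 CPM in MycCaP libraries. With TMM scaling all 4 values of Top2a were within a narrow range and the groups did not overlap. The log2 fold change of Top2a was -0.33 ± 0.28.

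The D-type cyclins differed from one another. Ccnd2 (ENSMUSG00000000184, protein-coding; chromosome 6, 127125162 to 127152193 on GRCm38) had 6.66 and 17.9 CPM in MycCaP-BMP4 libraries, against 67.6 and 60.9 CPM in MycCaP libraries. Both MycCaP-BMP4 values were far below both MycCaP values, and replicate 1 was the lower. Group means were 12.3 ± 7.96 and 64.3 ± 4.71 CPM (SD, n = 2 each), and the log2 fold change was -2.39 ± 0.50 (edgeR adjusted p = 0.141), with an adjusted p of 0.000209 by DESeq2. It was -1.84 without MycCaP-BMP4 replicate 1 and -3.24 without replicate 2, and -1.15 when scaled on the macrophage markers. The pan-macrophage genes, set beside it, were also lower, at median log2 differences of -2.37 and -0.43 from the MycCaP mean in MycCaP-BMP4 replicates 1 and 2, where Ccnd2 was at -3.18 and -1.81. T and NK cell genes were at -2.30 and -2.12 by the same measure. The part of either list in the Ccnd2 value was not tested.

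Ccnd1, the D-type cyclin used most widely, had 142 and 112 CPM in MycCaP-BMP4 libraries, against 109.6 and 109.96 CPM in MycCaP libraries. Ccnd3 had 43.99 and 37.0 CPM in MycCaP-BMP4 libraries, against 41.6 and 51.7 CPM in MycCaP libraries, and the groups overlapped. Neither stood beyond its error, at log2 fold changes of 0.21 ± 0.27 and -0.20 ± 0.26. Within a library, where scaling cancels, Ccnd2 counts were 0.0468 and 0.160 of Ccnd1 counts in MycCaP-BMP4 libraries, against 0.617 and 0.554 in MycCaP libraries. The partner kinases Cdk4 and Cdk6 had log2 fold changes of 0.20 ± 0.30 and 0.23 ± 0.27. Cdk4 had 237 and 178 CPM in MycCaP-BMP4 libraries, against 189.5 and 173 CPM in MycCaP libraries, and without MycCaP-BMP4 replicate 1 its log2 fold change was -0.02.

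Genes of the switch into S phase were split. Ccne2, a cyclin E gene, had 23.8 and 15.1 CPM in MycCaP-BMP4 libraries, against 6.65 and 12.6 CPM in MycCaP libraries. The groups did not overlap, but the nearest values, 15.1 and 12.6 CPM, were closer to each other than the members of either pair. Its log2 fold change was 1.01 ± 0.44 (edgeR adjusted p = 0.291), between 0.61 and 1.54 with each library left out in turn. Its paralog Ccne1 had 14.9 and 13.3 CPM in MycCaP-BMP4 libraries, against 14.6 and 15.99 CPM in MycCaP libraries, and Cdk2, the kinase partner of both, had 38.6 and 35.1 CPM against 37.4 and 37.2 CPM. Cdk2 had a log2 fold change of -0.02 ± 0.24 and Ccne1 of -0.11 ± 0.29, so neither differed beyond its error.

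E2f1, an activating E2F factor, had 29.8 and 35.1 CPM in MycCaP-BMP4 libraries, against 65.9 and 45.6 CPM in MycCaP libraries. Its groups did not overlap, and the log2 fold change was -0.78 ± 0.29 with TMM scaling (edgeR adjusted p = 0.238) and 0.85 scaled on the macrophage markers. E2f2, another activator, had 14.2 and 13.3 CPM in MycCaP-BMP4 libraries, against 18.8 and 19.5 CPM in MycCaP libraries, a log2 fold change of -0.48 ± 0.28. For E2f1 the MycCaP values spread more widely than the gap between the groups, and without MycCaP replicate 1 its log2 fold change was -0.50. Under macrophage marker scaling both fold changes were above 0.

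CDK inhibitors brake the cycle. Under TMM scaling 3 of the 4 were lower in both MycCaP-BMP4 libraries, as were 29.7% of all genes. Under macrophage marker scaling only Cdkn1a had a log2 fold change below 0, beside 7.84% of all genes. Cdkn1a, a p53 target that blocks cyclin-CDK complexes (chromosome 17, 29090976 to 29100727), had 125 and 399.7 CPM in MycCaP-BMP4 libraries, against 668 and 567 CPM in MycCaP libraries. Replicate 1 was far lower than replicate 2, and the log2 fold change of -1.24 ± 0.59 (edgeR adjusted p = 0.321) became -0.63 without replicate 1, -2.28 without replicate 2 and -0.07 scaled on the macrophage markers. Cdkn1b had 84.4 and 109 CPM in MycCaP-BMP4 libraries, against 138 and 141 CPM in MycCaP libraries. Cdkn2c, which binds CDK4 and CDK6, had 37.6 and 34.9 CPM in MycCaP-BMP4 libraries, against 58.5 and 57.4 CPM in MycCaP libraries. The groups did not overlap for either gene, though the MycCaP-BMP4 values of Cdkn1b spread almost as widely as the gap to the MycCaP values. TMM scaling gave log2 fold changes of -0.53 ± 0.27 for Cdkn1b and -0.68 ± 0.23 for Cdkn2c (edgeR adjusted p = 0.346 and 0.22), which turned to 1.05 for each when scaled on the macrophage markers.

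Cdkn2a, whose locus encodes an inhibitor of CDK4 and CDK6 and the p53-stabilising ARF protein, had 98.8 and 42.6 CPM in MycCaP-BMP4 libraries, against 51.2 and 42.96 CPM in MycCaP libraries. It was high in MycCaP-BMP4 replicate 1 and in no other library, and the counts do not separate its products. Its log2 fold change of 0.59 ± 0.43 turned to -0.15 without that library. Tumour epithelium genes were likewise highest in that library, at 865 CPM summed, and pan-macrophage genes lowest. Their part in the Cdkn2a value was not tested.

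DNA replication and nucleotide genes lay modestly below their MycCaP levels under TMM scaling, at a median log2 fold change of -0.24. The fold change was below 0 for 9 of 10, beside 51.7% of all genes. Both MycCaP-BMP4 values lay below both MycCaP values for 7 and above both for 1, beside 29.7% and 28.9% of all genes. Under macrophage marker scaling the median log2 fold change was 1.48, beside 1.64 over all genes tested. The 6 MCM genes, subunits of the replicative helicase, had log2 fold changes from -0.49 (Mcm5) to -0.13 (Mcm2), none with an edgeR adjusted p under 0.343. Mcm5 had 77.7 and 83.3 CPM in MycCaP-BMP4 libraries, against 105 and 122 CPM in MycCaP libraries. Mcm6 had 135 and 139.9 CPM in MycCaP-BMP4 libraries, against 161 and 158 CPM in MycCaP libraries. Pcna, the sliding clamp of DNA polymerase, had 196 and 251 CPM in MycCaP-BMP4 libraries, against 273 and 296 CPM in MycCaP libraries, a log2 fold change of -0.35 ± 0.31. For each of these 3 genes both MycCaP-BMP4 values lay below both MycCaP values, as for 29.7% of all genes.

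Ribonucleotide reductase makes deoxynucleotides from a large subunit, Rrm1, and a small one, Rrm2, and their log2 fold changes had opposite signs under TMM scaling. Rrm2 (chromosome 12, 24708241 to 24714146) had 178 and 92.5 CPM in MycCaP-BMP4 libraries, against 68.6 and 78.99 CPM in MycCaP libraries. Both MycCaP-BMP4 values were above both MycCaP values, replicate 1 by far the more, with a log2 fold change of 0.88 ± 0.38 (edgeR adjusted p = 0.285) that was 0.32 without that library. Rrm1 had 109 and 109 CPM in MycCaP-BMP4 libraries, against 156 and 139 CPM in MycCaP libraries, a log2 fold change of -0.44 ± 0.26. The ratio of Rrm2 to Rrm1 counts within a library was 1.63 and 0.852 in MycCaP-BMP4 libraries, against 0.440 and 0.567 in MycCaP libraries. Tyms, the thymidylate synthase gene, had 38.7 and 29.5 CPM in MycCaP-BMP4 libraries, against 34.1 and 35.6 CPM in MycCaP libraries, at -0.03 ± 0.26.

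Cyclin A2, cyclin B2 and Cdk1 were lower together under TMM scaling, to a similar level in both MycCaP-BMP4 libraries. Cdk1, the kinase of entry into mitosis, had 60.4 and 63.2 CPM in MycCaP-BMP4 libraries, against 109.95 and 91.1 CPM in MycCaP libraries. Ccna2 had 52.9 and 56.8 CPM in MycCaP-BMP4 libraries, against 89.5 and 82.3 CPM in MycCaP libraries. Ccnb2 had 41.6 and 44.9 CPM in MycCaP-BMP4 libraries, against 60.3 and 65.4 CPM in MycCaP libraries. Each pair of MycCaP-BMP4 values lay close together and below both MycCaP values, with log2 fold changes of -0.70 ± 0.25, -0.65 ± 0.24 and -0.54 ± 0.23 (edgeR adjusted p = 0.228, 0.235 and 0.286) for Cdk1, Ccna2 and Ccnb2, which were 0.98, 1.02 and 1.12 when scaled on the macrophage markers.

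Ccnb1 did not share this, with 31.0 and 27.9 CPM in MycCaP-BMP4 libraries, against 24.3 and 36.5 CPM in MycCaP libraries, and a log2 fold change of -0.04 ± 0.30. Its groups overlapped fully. A pseudogene copy, Ccnb1-ps, had 0 and 12 counts in MycCaP-BMP4 libraries, against 96 and 79 counts in MycCaP libraries. Ccnb1 itself had 857 and 635 counts, against 555 and 864. How reads were shared between the copies makes the value of Ccnb1 uncertain. Copies of Pcna, Ccnb2 and Ccnd3 also held counts. Pcna-ps2 had 61 and 44 counts in MycCaP-BMP4 libraries, against 49 and 73 in MycCaP libraries. Ccnb2-ps had 15 and 5 against 1 and 3, and Ccnd3-ps had 1 count, in MycCaP replicate 1.

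With TMM scaling the MycCaP-BMP4 values of all 10 mitosis genes were below their MycCaP values, as for 29.7% of all genes. Scaled on the macrophage markers, all 10 had a log2 fold change above 0, and 7.84% of all genes were below 0. That scaling raised MycCaP-BMP4 replicate 1 far more than replicate 2, so the change of sign rested mostly on replicate 1. With TMM scaling the median log2 fold change of the mitosis genes was -0.60 without MycCaP-BMP4 replicate 1 and -0.64 without replicate 2. Without replicate 1 edgeR called 2 members lower, Ccnd2 and Bub1b, beside 2.63% of all genes lower and 4.48% higher. Cenpa, the histone variant that marks centromeres (chromosome 5, 30666777 to 30674830), had 53.5 and 64.1 CPM in MycCaP-BMP4 libraries, against 121 and 93.3 CPM in MycCaP libraries, a log2 fold change of -0.87 ± 0.27 (edgeR adjusted p = 0.199). Bub1b, a kinase-like protein of the spindle checkpoint (chromosome 2, 118598211 to 118641591), had 39.7 and 39.3 CPM in MycCaP-BMP4 libraries, against 74.5 and 66.2 CPM in MycCaP libraries. With TMM scaling the Bub1b values of each group agreed closely. The Bub1b log2 fold change of -0.83 ± 0.23 had an edgeR adjusted p of 0.168. Bub1, the related checkpoint kinase, differed less, with 33.0 and 32.6 CPM in MycCaP-BMP4 libraries, against 37.1 and 48.5 CPM in MycCaP libraries.

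Birc5 encodes survivin, a subunit of the chromosomal passenger complex, and Aurkb the kinase of that complex. Birc5 had 47.1 and 50.3 CPM in MycCaP-BMP4 libraries, against 97.6 and 68.5 CPM in MycCaP libraries (log2 fold change -0.77 ± 0.28). Aurkb had 21.3 and 28.9 CPM in MycCaP-BMP4 libraries, against 37.6 and 45.4 CPM in MycCaP libraries (log2 fold change -0.73 ± 0.28). The Polo kinase gene Plk1 had 16.9 and 23.4 CPM in MycCaP-BMP4 libraries, against 33.8 and 34.3 CPM in MycCaP libraries (log2 fold change -0.76 ± 0.28). For all 3 both MycCaP-BMP4 values lay below both MycCaP values, as for 29.7% of all genes. Each fold change turned positive when scaled on the macrophage markers (0.90 for Birc5, 0.83 for Aurkb and 0.79 for Plk1). On that scale 7.84% of all genes were below 0. The spindle kinase Aurka and the spindle motor Kif11 had log2 fold changes of -0.60 ± 0.26 and -0.41 ± 0.24. Cdc20, an activator of the anaphase-promoting complex, and Ube2c, the ubiquitin-conjugating enzyme that works with that complex, had -0.52 ± 0.26 and -0.52 ± 0.24.

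Of the 10 members with an unadjusted p under 0.05, 5 were mitosis genes (Aurkb, Birc5, Bub1b, Cenpa and Plk1), and the others were Cdk1, Ccna2, Ccnd2, Cdkn2c and E2f1. The 10 mitosis genes summed to 0.314 and 0.341 of the counts of the 10 replication genes in MycCaP-BMP4 libraries, against 0.487 and 0.422 in MycCaP libraries. Ccna2 counts were 1.37 and 1.62 times Cdk2 counts in MycCaP-BMP4 libraries, against 2.40 and 2.21 times in MycCaP libraries. These ratios do not depend on the scaling of libraries; they were picked after values were seen and are given as a description. The groups overlapped in 2 of the 9 ratios computed. Cdkn1a counts were 2.35 and 7.03 times Ccna2 counts in MycCaP-BMP4 libraries, against 7.46 and 6.89 times in MycCaP libraries, and Mki67 counts 0.577 and 1.02 times Top2a counts, against 0.731 and 1.03 times.

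**Figure D2:**
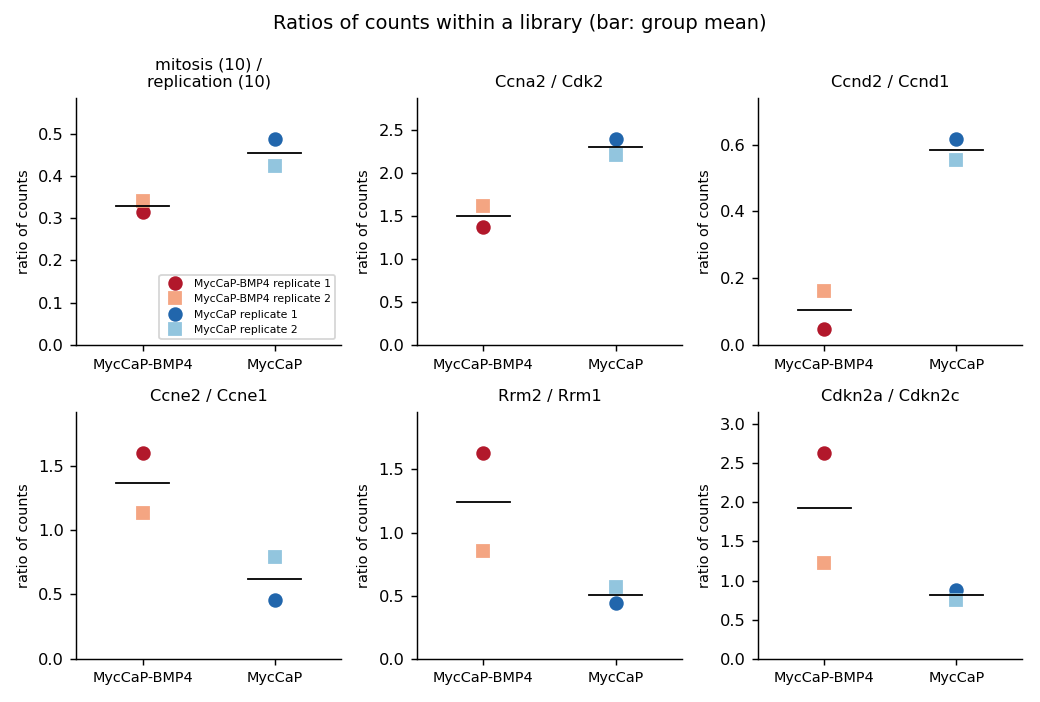
The vertical axes give ratios of raw counts within a library, starting at 0, for 2 MycCaP-BMP4 libraries (left) and 2 MycCaP libraries (right), with a bar at each group mean. The ratio of mitosis to replication counts is 0.314 and 0.341 in MycCaP-BMP4 libraries, against 0.487 and 0.422 in MycCaP libraries, and the 2 groups are apart in the 6 ratios drawn, which were chosen from 9, of which 2 overlap (Cdkn1a to Ccna2 and Mki67 to Top2a).

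With TMM scaling most of the cell cycle genes had similar values in both MycCaP-BMP4 libraries. For 34 of 40 members the MycCaP-BMP4 libraries differed by less than 0.5 on the log2(CPM + 0.5) scale, as did 49.99% of all genes tested. The exceptions were Ccnd2, Cdkn1a and Mki67, lower in replicate 1, and Ccne2, Cdkn2a and Rrm2, higher in that library. Mitosis genes had median log2 differences from the MycCaP mean of -0.65 and -0.58 in MycCaP-BMP4 replicates 1 and 2, and replication genes -0.23 and -0.21. Pan-macrophage genes had -2.37 and -0.43 by the same measure, and tumour epithelium genes 2.09 and 1.02. The agreement between the MycCaP-BMP4 libraries depends on TMM scaling. Their TMM factors were close, but the macrophage marker factor was far lower in replicate 1 than in replicate 2. A factor acts alike on every gene of a library, so macrophage marker scaling set these 34 members apart by more than 0.5, higher in replicate 1. Their agreement was therefore not kept on that scale. How many of the 40 members agreed there was not counted.

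**Figure D3:**
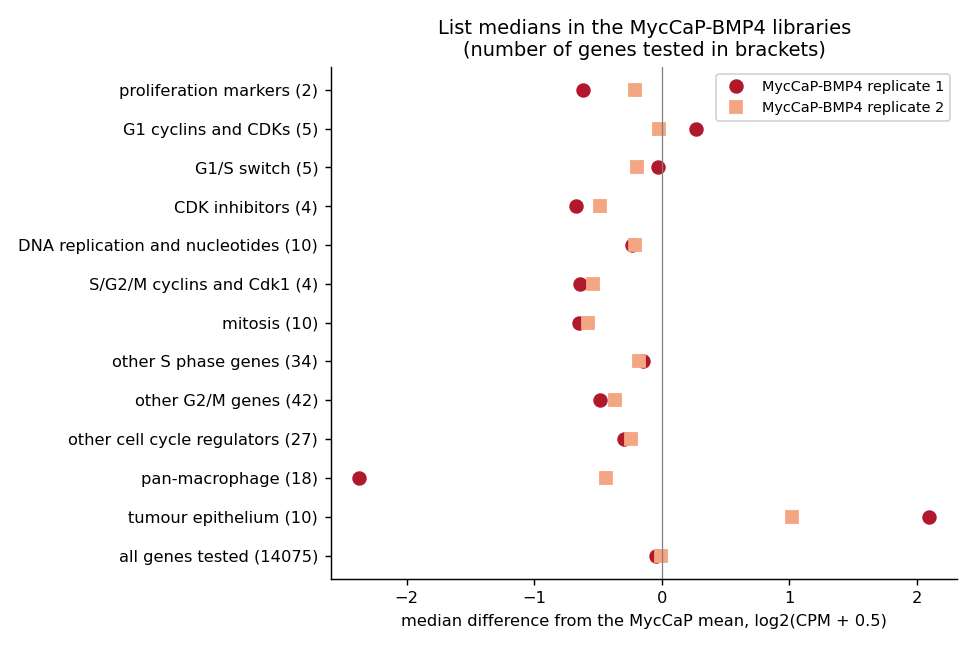
The horizontal axis is the median over the tested genes of a list of log2(CPM + 0.5) minus the MycCaP mean, for each MycCaP-BMP4 library with TMM scaling. Mitosis genes are at -0.65 and -0.58 in replicates 1 and 2, G1 cyclins and CDKs at 0.27 and -0.02, proliferation markers at -0.62 and -0.21, and pan-macrophage genes at -2.37 and -0.43.

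Cell cycle genes outside the 40 were split in a like manner. Of 42 other G2/M genes, all tested, 34 had a log2 fold change below 0, with a median of -0.41 under TMM scaling and 1.22 scaled on the macrophage markers. On the latter scale the median of all genes tested was 1.64. None of the 42 passed edgeR's test. In the MycCaP-BMP4 pair 31 of them lay below both MycCaP libraries and 2 above, beside 29.7% and 28.9% of all genes. Cdca3, a mitotic entry factor, had 18.4 and 24.1 CPM in MycCaP-BMP4 libraries, against 55.8 and 42.3 CPM in MycCaP libraries (log2 fold change -1.20 ± 0.29, edgeR adjusted p = 0.15; DESeq2 adjusted p = 0.0322). Pimreg and Kif23, a kinesin of cytokinesis, had log2 fold changes of -0.85 ± 0.28 and -0.83 ± 0.29. On the other side were Cbx5, a heterochromatin protein gene, at 0.84 ± 0.29, the tubulin gene Tubb4b at 0.55 ± 0.29 and the cytokinesis gene Anln at 0.61 ± 0.37.

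Of 34 other S phase genes, all tested, 22 had a log2 fold change below 0, with a median of -0.18 under TMM scaling and 1.52 scaled on the macrophage markers. Again none passed edgeR's test, with 15 lower in both MycCaP-BMP4 libraries and 3 higher, where 29.7% and 28.9% of all genes lay so. Cdca7, a MYC and E2F target, had 55.7 and 28.8 CPM in MycCaP-BMP4 libraries, against 13.1 and 17.6 CPM in MycCaP libraries (log2 fold change 1.46 ± 0.40, edgeR adjusted p = 0.163; DESeq2 adjusted p = 0.0256). Gins2, a helicase subunit, had 12.6 and 17.7 CPM in MycCaP-BMP4 libraries, against 35.4 and 30.04 CPM in MycCaP libraries (log2 fold change -1.11 ± 0.30). Rad51ap1 and the polymerase gene Pola1 had -0.91 ± 0.34 and -0.54 ± 0.23, and Exo1 and Dtl 0.58 ± 0.45 and 0.41 ± 0.35.

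Among 27 other regulators, 19 had a log2 fold change below 0, with a median of -0.30 under TMM scaling and 1.35 scaled on the macrophage markers, and none passed edgeR's test. The pocket protein genes Rbl2 and Rbl1 and the DREAM subunit gene Lin54 had log2 fold changes of -0.84 ± 0.28, -0.66 ± 0.28 and -0.75 ± 0.34. Those of E2f3, its partner Tfdp1 and the phosphatase gene Cdc25a were 0.75 ± 0.30, 0.82 ± 0.33 and 0.77 ± 0.33. Tfdp1 had 122 and 81.4 CPM in MycCaP-BMP4 libraries, against 47.6 and 67.8 CPM in MycCaP libraries.

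**Figure D4:**
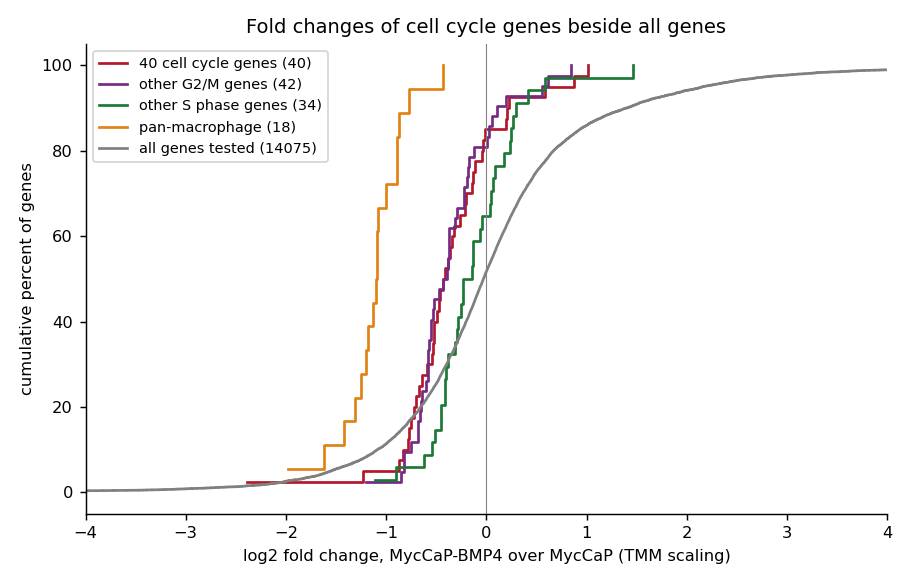
The curves give the cumulative percent of genes at or below each log2 fold change, MycCaP-BMP4 over MycCaP with TMM scaling, for 3 sets of cell cycle genes, the 18 pan-macrophage genes and all 14075 genes tested. The 40 cell cycle genes and the other G2/M genes have medians of -0.42 and -0.41, left of other S phase genes at -0.18 and all genes at -0.03; under macrophage marker scaling these 4 medians lie above 0.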

How the data were processed

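The deposited values are whole-number read counts per Ensembl gene. Per the submitters' processing notes the tools were HTSeq, STAR 2.6.0b, RSEM and Bowtie2 2.2.3, with GRCm38 (mm10). Not given in the sources used here are each tool's role, the annotation release and the strand setting, and 11 of the 40 genes overlap another gene, mostly on the opposite strand (Ccnd3 overlaps Bysl, Mcm7 overlaps Cops6), so reads there are uncertain. Libraries were prepared directionally from RNA with an integrity number above 7, per the labels' protocols.

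Symbols were matched for 37607 of 39179 identifiers; coordinates and exon lengths came from GENCODE M21 (GRCm38). Lines that name no gene, with 3.37% to 6.03% of counted reads outside genes, 8.01% to 10.6% not unique and 2.70% to 2.90% ambiguous, were left out. Genes passing filterByExpr were tested with edgeR 4.0.16 (R 4.3.3; quasi-likelihood F test, two-sided, TMM factors, no covariate, threshold 0.05 after Benjamini-Hochberg adjustment over all genes); the SE is the log2 fold change divided by the root of F. The test was checked on simulated counts with planted differences larger than most members showed. Recovery was required only at a spread below that of these data. Alternatives used DESeq2 1.42.0, limma 3.58.1, other scalings, filters, a replicate block and each library left out. Replicates differed beyond sampling noise, with a chi-square over its degrees of freedom of 208 for MycCaP-BMP4 and 32.9 for MycCaP. The members and gene lists were chosen with earlier results of these data known. A pseudocount of 0.5 CPM was used for differences per library. Named genes are all 40 members and, of each list of other cell cycle genes, the 3 with the smallest p in each direction.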

Additional observations from a re-analysis of the deposited data

How the results depend on the processing

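The count of all genes called, 0 in edgeR's test, was 65 with library size alone, 1099 with macrophage marker scaling, 1109 with no filter on low counts, 1385 with DESeq2, and 0 to 5753 with each library left out. Members called, 0 at first, numbered 1 (Ccnd2) with no filter and with DESeq2, and 0 to 15 with each library left out. Without MycCaP-BMP4 replicate 1, edgeR called Ccnd2 and Bub1b lower, beside 2.63% of all genes lower and 4.48% higher; without replicate 2 it called 12 lower and 3 higher, beside 20.2% and 18.5%. In those fits 1 library stood for the MycCaP-BMP4 group and was assumed to vary like the MycCaP pair. The cause of these differences was not tested.

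The replicate numbers give no pairing by design. With the replicate number as a block, edgeR called 2 of all genes and 0 members. Deviations of same-numbered libraries correlated at -0.15 across genes; with the numbers crossed, an alternative added after the data were seen, 689 genes and 1 member were called.

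Values under macrophage marker scaling are relative to its shift of 1.67 in all genes, and those with library size alone relative to 0.17. With each library left out, the median log2 fold change ranged from -0.43 to -0.36 over all members, -0.025 to 0.30 for G1 cyclins and CDKs, -0.20 to -0.0069 for the G1/S switch, -0.70 to -0.54 for mitosis and -0.20 to -0.13 for other S phase genes. The replication median was -0.19 with macrophage marker scaling. Signs turned for Cdk2 (0.0030 with DESeq2 and 0.0030 with its size factors in edgeR, 0.044 with macrophage marker scaling), Tyms (0.10) and Ccnb1 (0.011) with macrophage marker scaling, and with libraries left out for Cdk4 (-0.025 to 0.42), Cdk2 (-0.089 to 0.079), Cdkn2a (-0.15 to 1.10), Tyms (-0.24 to 0.18) and Ccnb1 (-0.32 to 0.27). With 2 libraries per group the test had little reach. Ccnd2, at -2.39 ± 0.50 on the log2 scale, and Bmp4, at 11.59 ± 0.95, did not pass. A member that did not pass is therefore not shown to be unchanged.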
